A study of Homo sapiens with 2 samples.

Results

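HBEGF, its fellow ERBB ligands AREG, EREG and TGFA, the receptors EGFR, ERBB2, ERBB3 and ERBB4, and the sheddases ADAM10 and ADAM17 were followed in HEK-293T cells given miR-194. These 10 genes were listed by name, HBEGF because it has been reported as a miR-194 target, and every probe set that the platform annotation assigns to a single gene of the list was taken. The annotation used here names 36 such probe sets for 9 of the 10 genes, out of 41091 single-gene probe sets for 19775 genes on the array, and AREG was not analysed here. HEK-293T is an established human embryonic kidney line that carries the SV40 large T antigen. The control group was 1 array of total RNA from HEK-293T cells transfected with a negative control mimic, and the treated group was 1 array from cells transfected with a miR-194 mimic. Both mimics were synthetic, were delivered with a lipid reagent at a final 50 nM, and stayed on the cells for 48 h, per the labels. The sequence of neither mimic is given in the sources used here, and the arrays do not measure how much mimic the cells took up.

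ERBB ligands are made as membrane proteins, and metalloproteases of the ADAM family, called sheddases, cut them free. Ligands of the EGF kind, HBEGF among them, bind EGFR and some also ERBB4, and neuregulins bind ERBB3 and ERBB4. The bound receptors pair with each other or with ERBB2 and signal through RAS-MAPK and PI3K-AKT. ADAM17 is known as the main sheddase of HBEGF, AREG, EREG and TGFA, and ADAM10 as that of EGF and betacellulin. A microRNA guides the silencing complex mainly through its seed, bases 2 to 8, to complementary sites in messenger RNA, which lowers the level or the translation of that messenger.

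The mature sequences of miR-194 are shown because the treated cells were given a mimic of that name. Which arm the mimic carries is not given in the sources used here. They are from RefSeq, GRCh38.p14, written 5′ to 3′ with the seed in capitals.
hsa-miR-194-5p: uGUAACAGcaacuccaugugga
hsa-miR-194-3p: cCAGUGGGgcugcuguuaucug
The 5p arm is annotated at chr1:220118206-220118227 (MIR194-1, minus strand) and with the same sequence at chr11:64891404-64891425 (MIR194-2, minus strand). The 3p arm shown lies at chr11:64891368-64891389, in MIR194-2. Among 2370 mature names in that table, 0 others share the 5p seed and 0 others the 3p seed. A transcript pairs with the 5p seed through CUGUUAC, but transcript sequences were not used here, so sites in HBEGF or the other members were not located.

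With 1 array per group the conditions cannot be compared by a test, and each difference below is the log2 signal with miR-194 minus the log2 signal with the control mimic. Culture, labelling and array differ between the groups together with the mimic, so their effects cannot be told apart. RNA came from whole cultures, so fewer expressing cells and less transcript per cell cannot be told apart either. Signals under an array's median were treated as unmeasured. That floor was 68.6 on the control array and 66.8 on the miR-194 array (6.10 and 6.06 on the log2 scale), close to the level under which 95% of the olfactory receptor probe sets lay, 64.8 and 62.6. In place of a replicate error, the value after ± is the probe set error. It is the typical disagreement between the 2 brightest kept probe sets of 1 gene, scaled down to a single probe set. Genes were classed by the mean signal of the brighter of these, and the other may be dimmer. The error was 0.38 up to a mean log2 signal of 9.23, 0.31 up to 10.87 and 0.27 above. Differences of culture, labelling or array that the probe sets of a gene share are not in it. The array scaling was common, with a 2% trimmed mean signal of 500.1 on both. The 12769 genes with a kept probe set, one whose mean floored signal lay above the mean floor, had a median difference of 0.02, and the central 95% ran from -0.87 to 0.62. Of the markers listed for the HEK-293 line, 7 of 10 were kept, among them the neurofilament NEFL and vimentin (VIM), while LHX1, SOX11 and DBH were under the floor on both arrays. Markers of other cells were kept for 0 of 4 hepatocyte, 1 of 5 blood, 1 of 4 endothelial, 1 of 4 keratinocyte and 3 of 5 fibroblast genes.

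Much of the ERBB system lay near or under the floor in these cells. Of the 36 probe sets, 14 were above the floor on both arrays, 4 on the control array only, and 18 on neither array. The 18 kept probe sets represented 8 genes, and EREG had none. On the brightest kept probe set, 7 of the 8 genes were above the floor on both arrays. Of these 7, HBEGF and ADAM10 (2 genes) were lower with miR-194 by 1.5-fold or more, against 7.13% of all genes above the floor on both arrays, and 0 were higher, against 2.55%. The eighth gene, ERBB3, was kept through the control array alone, which fixes its direction, and its bound also lay past 1.5-fold. With it 3 of 8 kept genes were lower and 0 higher, where 7.31% and 2.98% of all kept genes were. Of the 14 probe sets above the floor on both arrays, 2 were lower by 1.5-fold or more, against 7.7% of all such probe sets, and 0 were higher, against 4.61%. Another 2 of the 4 kept through the control array had bounds past 1.5-fold, with the direction fixed by the filter. With them 4 of 18 kept probe sets were lower (7.99% of all kept probe sets) and 0 higher (5.08%). Among the 14 probe sets above the floor on both arrays, 7 were below 0 and 7 above, with a median of -0.07.

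**Figure D1:**
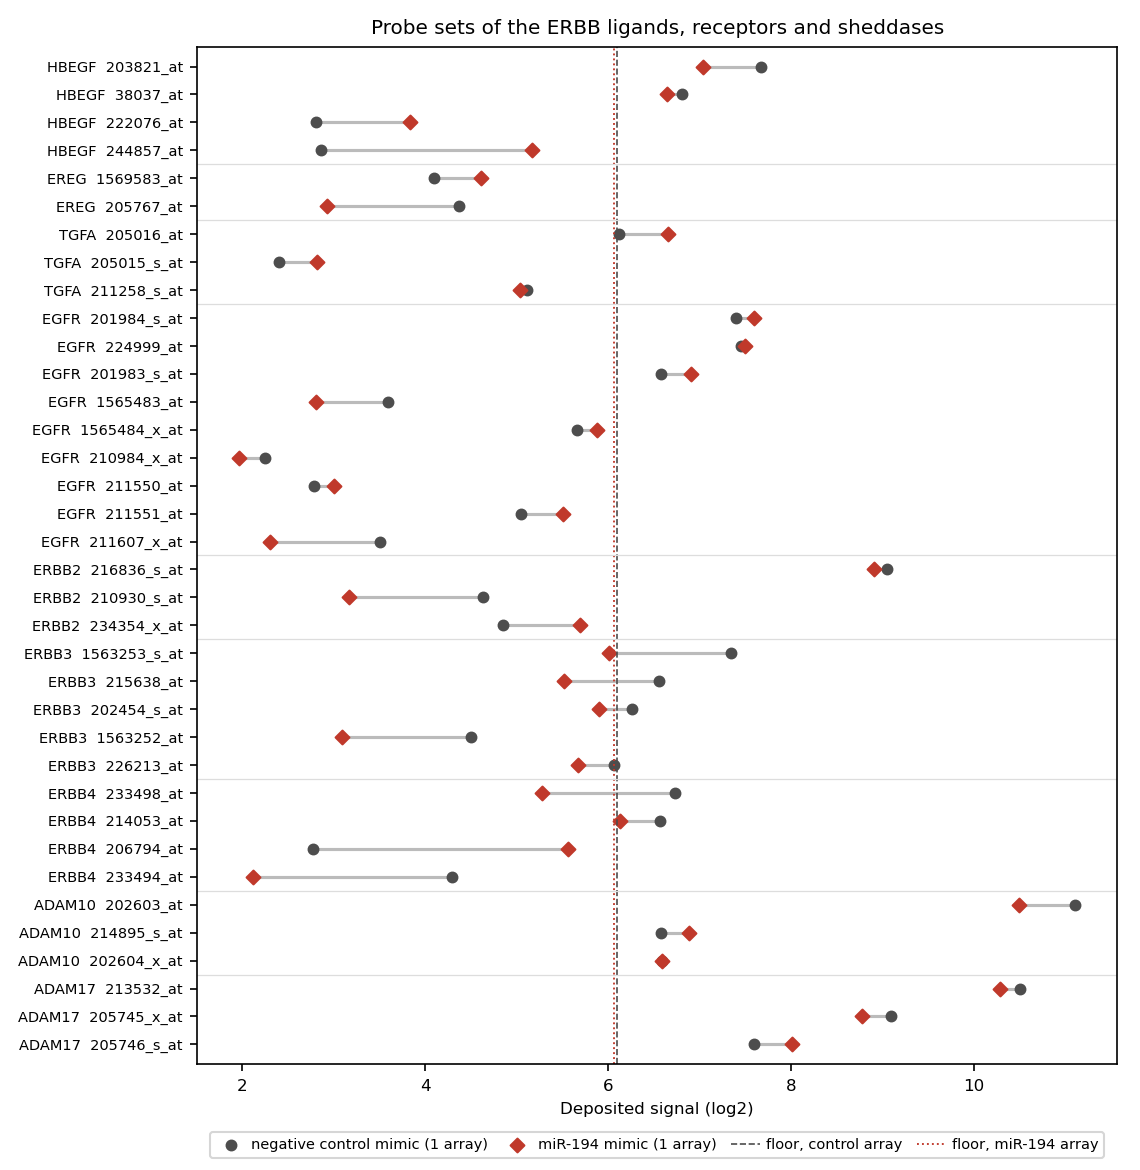
Deposited log2 signal (x axis) of each of the 36 probe sets of the 9 genes (y axis), with a grey circle for the control mimic array, a red diamond for the miR-194 array, and a dashed or dotted line at each array's floor. ADAM10 and ADAM17 each have a probe set far above the floor, while 18 probe sets lie under it on both arrays and those of ERBB3 are all left of their control value with miR-194.

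HBEGF, the heparin-binding EGF-like growth factor, was lower with miR-194 on both of its measured probe sets, by unequal amounts. Probe set 203821_at read a signal of 205 on the control array and 131 on the miR-194 array. This is a log2 difference of -0.64 ± 0.38, or 1.56-fold lower, just past the 1.5-fold threshold (0.58 on the log2 scale). Probe set 38037_at read 112 and 99.9, a log2 difference of -0.16 ± 0.38, which is smaller than the probe set error. The log2 differences of the probe sets are 0.48 apart, and 29.7% of the 3476 genes with exactly 2 kept probe sets had a gap at least that wide. The mean over both probe sets was -0.40, short of 1.5-fold. The other HBEGF probe sets, 222076_at and 244857_at, were under the floor on both arrays (log2 signals of 2.81 and 2.86 on the control array, 3.83 and 5.17 on the miR-194 array) and give no fold.

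A difference as low as that of HBEGF was not rare at its signal. Of the 6031 kept genes in the lowest of 3 signal classes, 7.20% were at or below -0.64, and 8.79% were lower by 1.5-fold or more. HBEGF is a short gene, 13.8 kb of genomic length in the GRCh38.p14 annotation. In its class of gene length, the second shortest of 5, 3.65% of 2551 genes passed 1.5-fold downward and the median difference was 0.07. Neither HBEGF probe set carries the suffix _s_at, _x_at or _a_at, which marks sets built on sequence that several transcripts share, so HBEGF had the same value when such sets were left out.

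TGFA, transforming growth factor alpha, differed in the other direction. Probe set 205016_at read 69.6 with the control mimic, barely above the floor, and 101 with miR-194, a log2 difference of 0.54 ± 0.38 that stays under 1.5-fold. In the lowest signal class 6.58% of genes were as high or higher. The other TGFA probe sets were under the floor on both arrays, with log2 signals from 2.40 to 5.12. EREG, epiregulin, had log2 signals of 4.10 and 4.37 on its 2 probe sets with the control mimic and of 4.61 and 2.93 with miR-194, all under the floor. The remaining ligands of the family gave no measured value either. Of EGF, BTC, EPGN, NRG1, NRG2, NRG3 and NRG4, 6 had single-gene probe sets and 0 had a kept one. HBEGF was thus the only one of these ligands with more than 1 kept probe set.

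EGFR, the receptor that HBEGF and TGFA bind, was close to equal on the arrays. Its 3 kept probe sets read 169 and 193.5 (201984_s_at), 176 and 180 (224999_at), and 95.9 and 120 (201983_s_at), with the control value first. The log2 differences were 0.19, 0.04 and 0.32, each ± 0.38, so all 3 lay above 0 and within the probe set error. Of the 1743 genes with exactly 3 kept probe sets, 21.6% had all 3 above 0. The other 6 EGFR probe sets were under the floor on both arrays. ERBB2, the receptor with no known ligand of its own, had signals of 529 and 479 on 216836_s_at, a log2 difference of -0.14 ± 0.38. Its 2 other probe sets were under the floor, and all 3 are of a type designed on shared sequence.

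ERBB3, a neuregulin receptor with little kinase activity of its own, had 3 probe sets above the floor on the control array and 0 with miR-194, so its values are bounds whose direction the filter fixed. Probe set 1563253_s_at read 162 on the control array and 64.4 with miR-194, under the floor there, so it was at least 2.43-fold lower (log2 bound of -1.28). Probe set 215638_at read 94.2 and 45.7 and was at least 1.41-fold lower, and 202454_s_at read 76.7 and 59.6 and was at least 1.15-fold lower. The remaining probe sets were under the floor on both arrays, with log2 signals of 6.06 and 5.67 (226213_at) and of 4.50 and 3.09 (1563252_at). All 5 probe sets thus had the lower value with miR-194, and 3 of them crossed the floor between the arrays. The brightest is of a type designed on shared sequence, and without such probe sets ERBB3 was lower by a log2 bound of -0.50, short of 1.5-fold.

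ERBB4, which binds neuregulins and HBEGF, was near the floor as well. Probe set 214053_at, the brightest by mean log2 signal before the floor was applied, read 95.2 and 69.9, a log2 difference of -0.45 ± 0.38. Probe set 233498_at read 106 on the control array and 38.8 with miR-194, under the floor. It was at least 1.59-fold lower, a bound whose direction the filter fixed. Of its other probe sets, 206794_at had log2 signals of 2.78 and 5.56 and 233494_at of 4.29 and 2.12, all under the floor and in opposite directions. At 1163 kb ERBB4 is in the longest of the 5 classes of gene length, in which 14.1% of 2551 genes passed 1.5-fold downward and the median difference was -0.11. The part of gene length in the value was not tested.

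**Figure D2:**
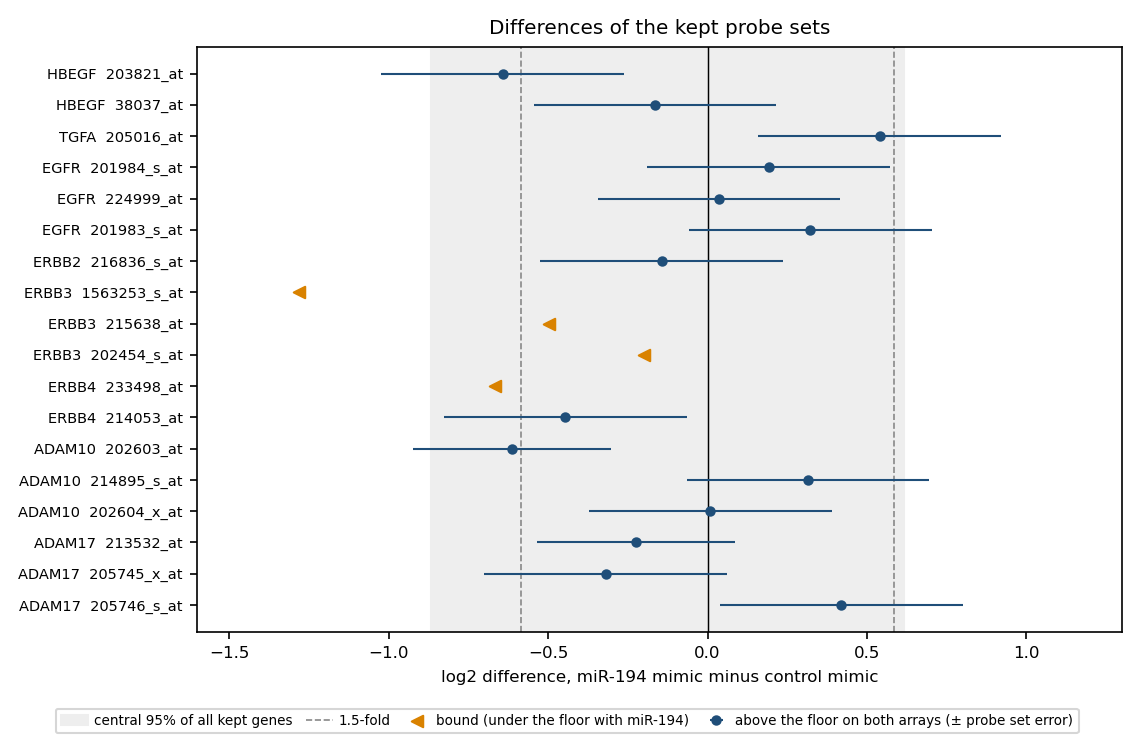
Log2 difference, miR-194 minus control mimic (x axis), of the 18 kept probe sets (y axis), with bars for the probe set error, orange triangles for bounds and a grey band for the central 95% of all kept genes (-0.87 to 0.62). The bound of the ERBB3 probe set, -1.28, lies outside the band, while HBEGF at -0.64 and ADAM10 at -0.61 lie inside it and just past the 1.5-fold line.

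Each sheddase had a probe set far above the floor, and the brightest of each had the lower value with miR-194. For ADAM10, probe set 202603_at read 2212 on the control array and 1445 with miR-194, a log2 difference of -0.61 ± 0.31, or 1.53-fold lower. In the middle signal class 7.78% of 3368 genes were as low or lower, and 8.52% passed 1.5-fold downward. Its other probe sets are of shared-sequence types with signals near the floor and were not lower: 214895_s_at read 95.3 and 119 (0.32 ± 0.38), and 202604_x_at read 96.0 and 96.6 (0.01 ± 0.38). The range over the 3 log2 differences was 0.93, and 14.6% of the genes with exactly 3 kept probe sets had a range that wide. The mean over the probe sets was -0.10, and on the brightest alone the difference fell short of 1.5-fold after median scaling (-0.575) and after quantile normalization (-0.58). ADAM10 spans 161 kb and belongs to the longest class of gene length, with the 14.1% given above for ERBB4. The part of gene length in this value was not tested.

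For ADAM17, probe set 213532_at read 1456 and 1247, a log2 difference of -0.22 ± 0.31. Probe set 205745_x_at read 548 and 439 (-0.32 ± 0.38), and 205746_s_at read 193 and 258 (0.42 ± 0.38). None of the 3 reached 1.5-fold and their signs differed, as they did in 54.0% of the 6456 genes that had at least 2 kept probe sets. The difference between ADAM10 and ADAM17 on their brightest probe sets was not tested.

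**Figure D3:**
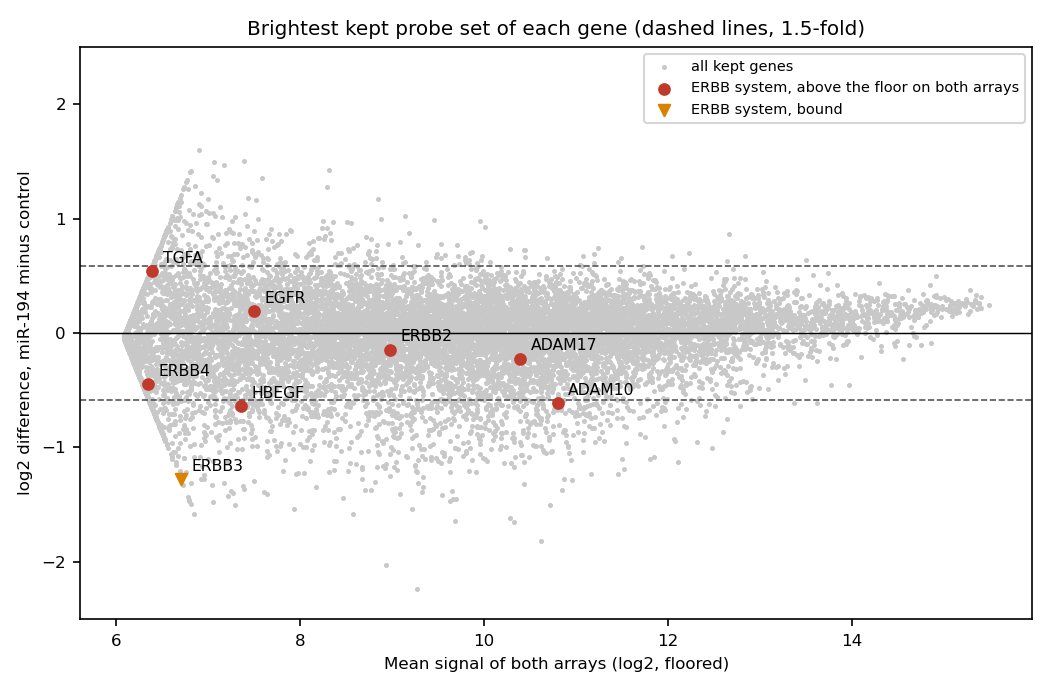
Log2 difference, miR-194 minus control mimic (y axis), against mean floored log2 signal (x axis) for the brightest kept probe set of each of 12769 genes in grey, with the 8 ERBB system genes marked and dashed lines at 1.5-fold; 1 gene lies outside the plotted range. HBEGF, ERBB3 and ADAM10 lie below the lower line, and the spread of all genes is widest at low signal, where HBEGF, TGFA, EGFR, ERBB3 and ERBB4 lie.

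Most genes that work beside the sheddases differed by less than 1.5-fold. Of 17 sheddase partners and relatives, 16 were kept, 11 were above 0 and 5 below, where 52.4% of all kept genes were above 0, and the median was 0.08 against 0.02 for all kept genes. By 1.5-fold or more 0 were lower and 1 was higher, where 7.31% and 2.98% of all kept genes were. TSPAN33, a tetraspanin that carries ADAM10 to the cell surface, read 219 and 366 on its only probe set and was higher by 1.67-fold (0.74 ± 0.38). The 6 tetraspanins of this kind ran from -0.20 to 0.74, with 5 above 0, a grouping made after their values were seen. ADAM9, a further metalloprotease of the family, was the lowest at -0.43 ± 0.27 (signals of 3318 and 2461), but another of its 3 kept probe sets was at 0.89.

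Downstream of the receptors, 1 of the kept signalling genes had a value past 1.5-fold on its brightest kept probe set. Of 16 adaptor and RAS-MAPK genes, 11 were kept, 1 was lower by 1.5-fold and 0 were higher (median 0.05, or 0.20 as the mean over probe sets), beside 7.31% and 2.98% of all kept genes. The lower gene was SOS2, an exchange factor that activates RAS, with signals of 633 and 335 (-0.92 ± 0.38), and another probe set at -0.25. MAP2K1, the kinase that activates ERK, was the highest at 0.20 ± 0.27. On other kept probe sets PTPN11 reached 0.93, SHC1 0.73 and MAP2K2 0.71, and GAB1 reached -0.72. Of all kept probe sets, 5.08% were higher and 7.99% lower by 1.5-fold or more. Of 14 genes of the PI3K-AKT, STAT and PLC branch, 10 were kept and 0 had a value past 1.5-fold in either direction (median 0.04). The values ran from PIK3R1, a regulatory subunit of PI3K, at -0.49 ± 0.31 to the transcription factor STAT3 at 0.31 ± 0.31. STAT5A, 1 of the 10, read 92.3 on the control array and 52.0 with miR-194, under the floor. It was at least 1.38-fold lower, a bound whose direction the filter fixed, so a difference past 1.5-fold is not excluded for it.

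Genes of receptor turnover and inhibition had the lowest median of the lists. Of 23 names listed, which hold RNF41 under an older name as well, 20 were kept, 12 were below 0 and 8 above, where 47.6% of all kept genes were below 0. The median was -0.15, and over the alternatives it ran from -0.29 without shared-sequence probe sets to -0.08 with a floor at the 75th percentile. By 1.5-fold 2 were lower and 0 higher, beside 7.31% and 2.98% of all kept genes. SOCS4, a suppressor of cytokine signalling reported to act on EGFR, read 1644 and 830 (-0.99 ± 0.31), with its other kept probe set at 0.02. UBASH3B, a phosphatase that slows EGFR turnover, read 127 and 72.7 (-0.80 ± 0.38), with another probe set at 0.19. STAMBP, a deubiquitinase of endosomes, was the highest at 0.31 ± 0.27. The kept genes of this list had a median length of 73.8 kb, and the class of genes around 59.7 kb had a median difference of -0.03. The part of length in the median of the list was not tested.

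Transcripts that receptor signalling is known to induce were mostly above 0. Of 16 listed, 11 were kept and 10 were above 0, where 52.4% of all kept genes were. Of the 10 above the floor on both arrays 9 were above 0, while SPRY4 was kept through the miR-194 array alone, which fixes its sign. By 1.5-fold 3 were higher and 0 lower, beside 2.98% and 7.31% of all kept genes. The median was 0.19, and 0.42 with a floor at the 25th percentile or 0.30 with no floor. Without shared-sequence probe sets it was 0.16. The list overlaps with genes whose values in these arrays were known when it was drawn up, so its direction is not independent evidence. DUSP5, a phosphatase of ERK, read 112 and 193.9 (0.79 ± 0.38). EGR1, an immediate early transcription factor, read 184 and 284 (0.62 ± 0.38), with its other kept probe set at 0.34. DUSP4, also a MAP kinase phosphatase, read 72.6, close to the floor, and 110 (0.60 ± 0.38). All 3 are of low signal, where 5.52% of kept genes were higher by 1.5-fold or more. CCND1, cyclin D1, was the exception below 0, at -0.46 ± 0.31. These genes are short, with a median of 6.33 kb, and the shortest class of genes (median 4.50 kb) had a median difference of 0.08 with 4.82% higher by 1.5-fold. The part of length in this result was not tested.

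**Figure D4:**
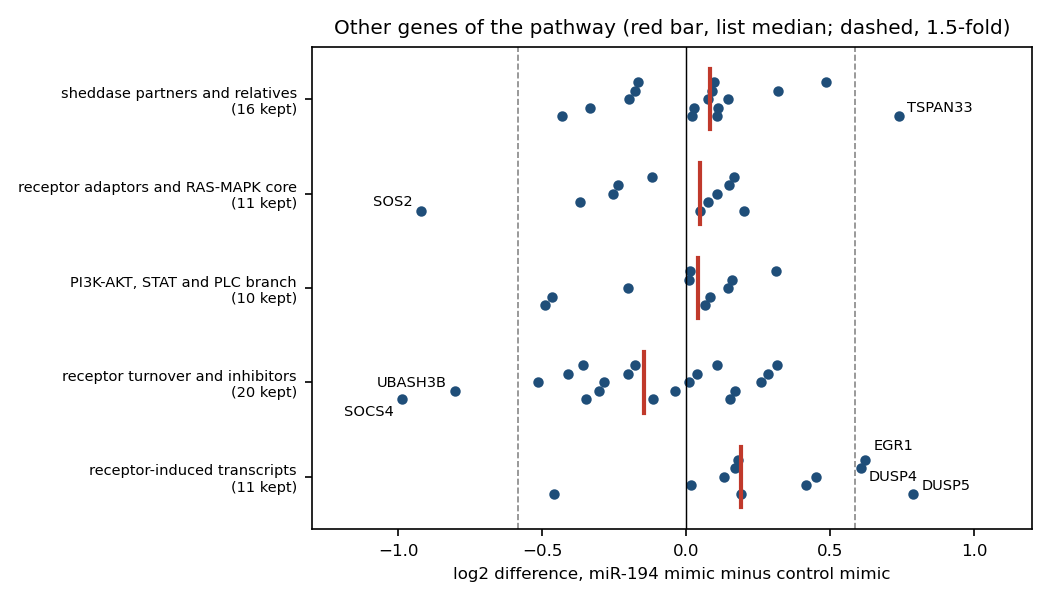
Log2 difference, miR-194 minus control mimic (x axis), of the kept genes of 5 pathway lists (y axis), 1 point per gene on its brightest kept probe set, with a red bar at each list's median and dashed lines at 1.5-fold. The medians run from -0.15 for receptor turnover and inhibitors to 0.19 for receptor-induced transcripts, and the 7 named genes are those past 1.5-fold.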

How the data were processed

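Total RNA was measured on 2 Affymetrix 3' arrays, 1 per group. The authors deposited log2 signals made with MAS5, per the submitters' processing notes, which name no version. Neither the log base nor a scaling target is stated in the sources used here. Base 2 was taken because raising 2 to the values gave equal trimmed means. Background correction and probe summarisation are the authors'. Probe sets were named through the platform annotation, and those with several genes (1801) or with none listed (11721, array controls aside) were left out. Gene lengths came from RefSeq GRCh38.p14. Signals under each array's median were set to it. A gene was represented by whichever of its kept probe sets was brightest on average over the deposited log2 signals, before the floor was applied. For the probe set error, the log2 differences of a gene's 2 brightest kept probe sets were subtracted from each other. The SD over genes of that gap, scaled by 1 over the square root of 2, was taken in each of 3 signal classes. The class was set by the brighter probe set. Pathway genes are named when past 1.5-fold or highest or lowest in their list. Members and lists were chosen with earlier results of these data known. Python 3.11.15, pandas 2.3.3 and lowess from statsmodels 0.14.6 were used, and the code was tested on simulated data. Alternatives were 3 scalings, 4 floors, 2 probe set rules and a 2-fold threshold.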

Additional observations from a re-analysis of the deposited data

How the results depend on the processing

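Each of the 8 kept genes kept its sign under every alternative that gave it a value, 9 for ADAM10 and ADAM17 and 8 for the others. Part of this was fixed in advance. A lower floor cannot change a probe set already above the floor on both arrays, and HBEGF has no kept probe set of shared-sequence type. The sign of ERBB3 was fixed by the filter wherever it was kept through the control array alone. HBEGF ran from -0.64 to -0.40, with -0.40 as the mean over probe sets. ADAM10 moved to -0.10 as the mean over probe sets, beside the scalings given above. ERBB3 was -0.66 as the mean over probe sets and -0.50 without shared-sequence probe sets. The share of all genes or probe sets past the same fold follows each count in parentheses. The number of lower genes, 3 of 8, was 2 after median scaling (6.34%), after quantile normalization (6.72%) and without shared-sequence probe sets (2 of 7, 8.66%). It stayed at 3, but of 9 kept genes, with a floor at the 25th percentile (13.5%) and with no floor (17.8%). It was 1 of 3 with the 75th percentile as floor (6.002%), 1 as the mean over probe sets (5.29%) and 1 at 2-fold (1.42%). As the mean over probe sets and at 2-fold that gene was ERBB3, whose direction the filter fixed. No member gene above the median floor on both arrays was lower by 2-fold. ERBB3 is also in the counts after median scaling and quantile normalization. The number of lower probe sets, 4 of 18, was 1 of 4 with the 75th percentile as floor (5.98%). It was 1 at 2-fold (1.61%), also of ERBB3. With a floor at the 25th percentile it was 5 of 29 (14.8%), at the olfactory receptor level 5 of 19 (8.20%) and with no floor 11 of 36 (19.7%). Higher probe sets numbered 3 of 29 with a floor at the 25th percentile (11.45%) and 4 of 36 with no floor (16.4%). Over the pathway lists, 3 lower and 4 higher of 68 genes became 9 (13.5%) and 7 (8.785%) of 80 with the 25th percentile floor, and 10 (17.8%) and 7 (13.2%) of 81 with no floor. Higher pathway genes were 0 of 49 with the 75th percentile floor (0.73%), lower ones 0 as the mean over probe sets (5.29%), and both were 0 at 2-fold (1.42% lower, 0.43% higher). Causes were not tested. With a floor at the 75th percentile ERBB2, ADAM10 and ADAM17 alone of the members had values. No paired analysis was possible because each group has 1 array, which limits the precision of every value.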

Other observations

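ERBB3 was singled out after its values were seen. On the deposited values without a floor, all 5 of its probe sets were lower with miR-194. Of the 706 genes with exactly 5 single-gene probe sets, 57 (8.07%) were lower on all 5 and 33 (4.67%) higher on all 5. These shares describe the pair of arrays and are not a test of the conditions, and probe sets of 1 gene share their RNA. HBEGF had both kept probe sets below 0, as did 859 (24.7%) of the 3476 genes with exactly 2 kept probe sets. Without a floor its probe sets were mixed, since the other 2, under the floor on both arrays, were higher with miR-194 by 1.02 and 2.31 on the log2 scale.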
